A study of Mus musculus with 6 samples.

Results

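Chemokine receptors sit on the surface of T cells and couple to G proteins, and the ligands they sense decide where a cell travels and stays. The 9 receptors described here guide regulatory T cells (Treg), CD4 T cells defined by the factor Foxp3, whose task is to hold immune responses in check. Ccr7 and Cxcr5 act within lymphoid organs: Ccr7 leads cells into the T cell zone of lymph nodes, and Cxcr5 leads them to the B cell follicle. The other 7, Ccr2, Ccr4, Ccr6, Ccr8, Cxcr3, Cxcr4 and Cxcr6, are known for recruitment or retention in inflamed tissue, skin, gut, lung, liver or bone marrow, although Cxcr4 also serves within lymphoid organs. Members were chosen by name, as every probe set on the array whose single annotated symbol is one of these 9 genes. This gave 12 probe sets, for 9 of the 12393 genes on the array that have a probe set of their own: 3 for Ccr2, 2 for Cxcr6 and 1 for each of the other 7 receptors.

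Messenger RNA of Treg sorted as CD4+YFP+ was measured on 6 arrays, 1 per sample, in mice of C57BL/6 background. The 3 control arrays have B6_WT titles and the genotype Foxp3cre. The other 3 have USP7 titles. The series text describes them as fl-Usp7/Foxp3cre, a deletion of the deubiquitinase gene Usp7 driven in Foxp3-expressing cells, whereas their genotype field reads fl-HDAC11/Foxp3cre. They are called USP7-titled here. By these labels both groups share the Foxp3cre allele and the sort. A Cre driven by Foxp3 acts in the cells that express Foxp3. Age, sex and the organ sampled were not stated in the labels used here. Nor do they say that every sample was a separate animal, and p-values then reflect only how far these samples scatter.

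The labels were checked first. Usp7, by its brighter probe set, read 11.69, 11.73 and 11.61 on the log2 scale in control arrays and 10.54, 10.69 and 10.76 among USP7-titled arrays. That is a change of -1.01 (SE 0.07, limma adjusted p = 2.04e-06). Hdac11 changed by -0.58 (SE 0.16, limma adjusted p = 0.0190) in its brighter probe set, and the other was at -0.22 (limma adjusted p = 0.354). Foxp3 read 12.98 ± 0.15 in control arrays and 7.004 ± 0.25 in USP7-titled arrays (SD, n = 3 each). Its change was -5.98 (SE 0.13, limma adjusted p = 1.62e-09). Whether both groups carry the same Foxp3 allele was not tested, and the position of the Foxp3 probes was not analysed here. All 9 measured Treg markers fell in USP7-titled arrays, with a median log2 change of -0.36. When the arrays were scaled to hybridization spikes (spike scaling), 6 of 9 fell. Of 8 measured T cell markers 1 rose (Zap70 by 0.48, with its dimmer probe set at -0.41 and not passed), 3 fell (Cd28 by 0.30, Cd5 by 0.21 and Cd3e by 0.11) and 4 did not pass; with spike scaling none of the 3 falls passed, and Cd3e was at 0.05. Xist, the RNA of the inactive X chromosome, read 12.50 ± 0.06 in control arrays and 5.30 ± 0.58 in USP7-titled arrays, and the Y-linked Eif2s3y read 4.50 ± 0.66 and 10.15 ± 0.05 (SD, n = 3 each). Control arrays thus had the female and USP7-titled arrays the male pattern; for every receptor, sex therefore cannot be told apart from group. The Gapdh 3' minus 5' difference, which grows as RNA degrades, ran from 0.989 to 1.23 in control arrays and 0.907 to 0.986 in USP7-titled arrays.

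Of the 9 receptors, Cxcr6, Cxcr3 and Cxcr4 rose, Ccr6 and Ccr7 fell, and Ccr2, Ccr4, Ccr8 and Cxcr5 did not pass the test by their brightest probe set. Passing means an adjusted p under 0.05 in limma over all 22626 gene probe sets, and that background is high: 32.4% of all genes passed by their brightest probe set, 16.9% as higher and 15.6% as lower. Of the 5 receptors that passed, 3 changed by more than 2-fold. Cxcr6 and Cxcr3 were 3.05-fold and 2.42-fold higher and Ccr6 was 3.37-fold lower, whereas 3.12% of genes rose and 1.23% fell by 2-fold or more. By probe set, 4 of 12 rose, 2 fell and 6 did not pass, whereas 33.3% of all probe sets passed, 16.2% as higher and 17.1% as lower. The groups did not overlap in 8 of the 12 probe sets, against 45.7% of all probe sets, and in 6 of 9 receptors by the brightest, against 45.6% of genes.

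**Figure D1:**
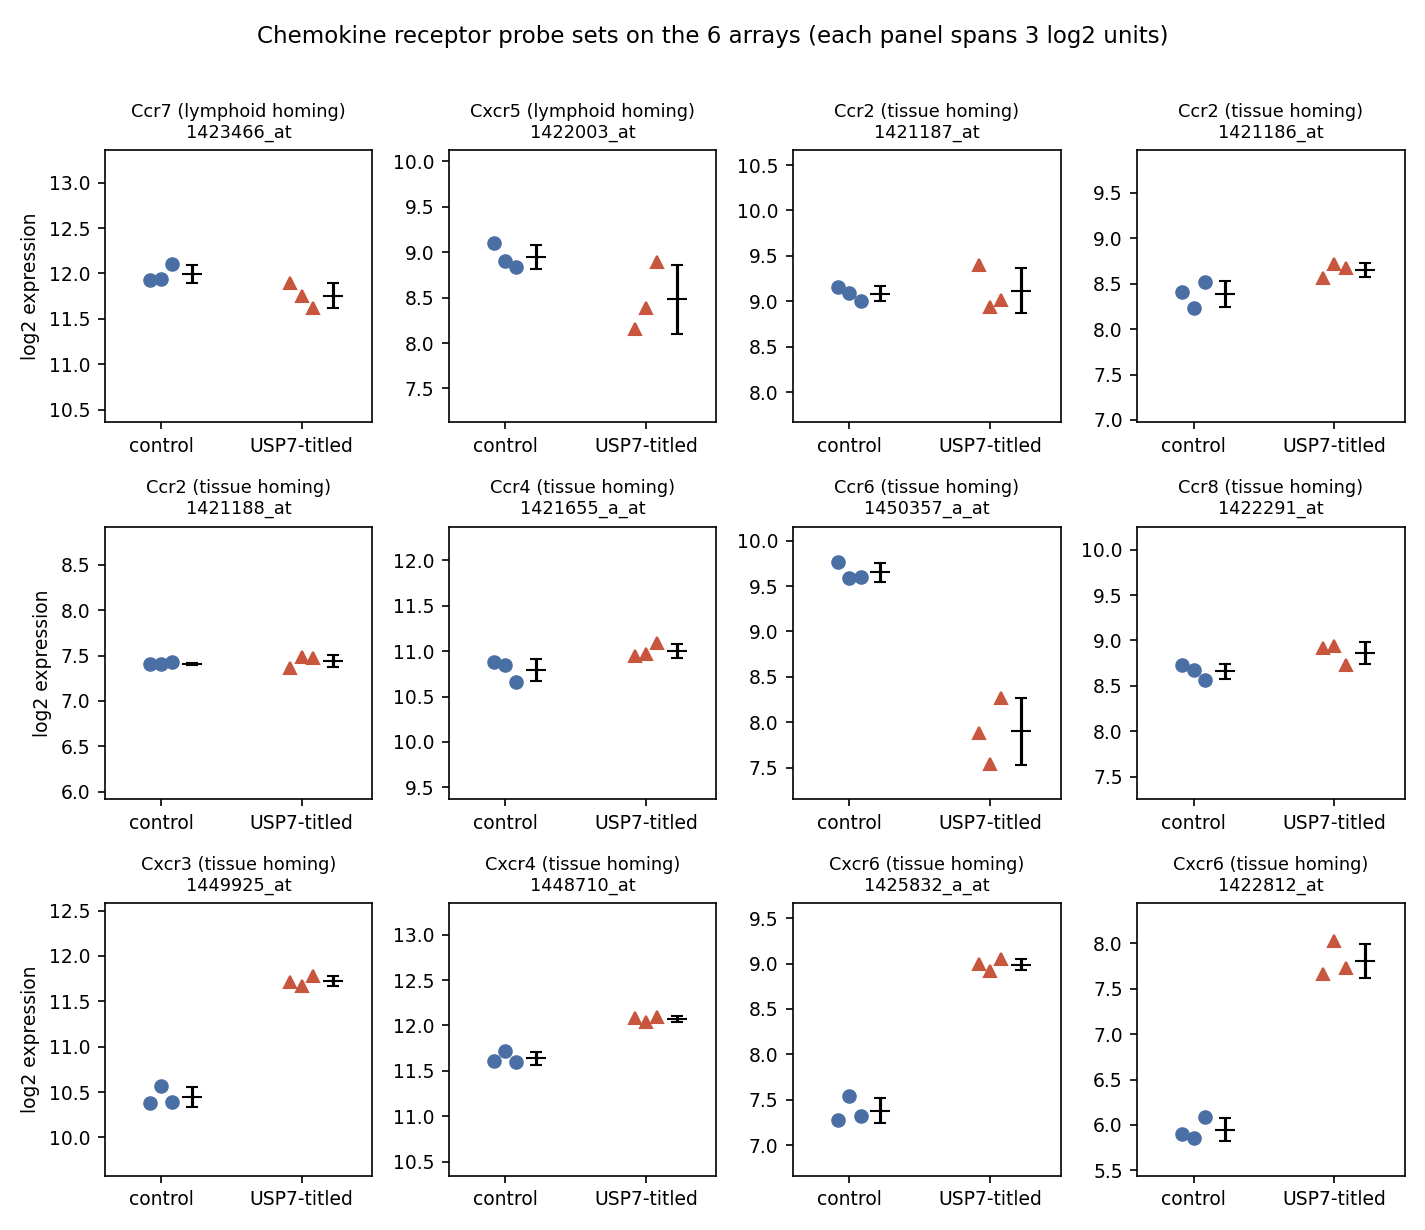
The log2 expression of each of the 12 receptor probe sets on each array is plotted for 3 control (circles) and 3 USP7-titled arrays (triangles), with the group mean and SD beside them; each panel spans 3 log2 units. The USP7-titled points lie clear above the controls for Cxcr3, Cxcr4 and both probe sets of Cxcr6 and clear below them for Ccr6, while those of Cxcr5 reach from 8.15 up to 8.90, into the control range.

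The sequence before the start of the 3 receptors that changed by over 2-fold is shown first, because they carry the largest differences. RefSeq (build GRCm38.p6) gave a start site for 7 of the 9 members, in 8 windows; Ccr7 and Cxcr5 had no entry. Each run below is the 250 bases upstream of a start, 5′ to 3′ on the gene's strand. Capitals mark matches, on either strand, to 3 short motifs: TCACAC, the core of the half-site of T-box factors such as T-bet; AGGTCA, the half-site of ROR and other nuclear receptors; and TGTGGT, the core site of RUNX factors. No matches overlapped one another in these windows.
Cxcr3 (chrX:101734148-101734397, minus strand): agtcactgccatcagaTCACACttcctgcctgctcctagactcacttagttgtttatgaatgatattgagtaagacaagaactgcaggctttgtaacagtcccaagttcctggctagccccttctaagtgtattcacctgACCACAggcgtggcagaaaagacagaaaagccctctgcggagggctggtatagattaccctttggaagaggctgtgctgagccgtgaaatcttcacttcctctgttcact
Cxcr6 (chr9:123806227-123806476, plus strand): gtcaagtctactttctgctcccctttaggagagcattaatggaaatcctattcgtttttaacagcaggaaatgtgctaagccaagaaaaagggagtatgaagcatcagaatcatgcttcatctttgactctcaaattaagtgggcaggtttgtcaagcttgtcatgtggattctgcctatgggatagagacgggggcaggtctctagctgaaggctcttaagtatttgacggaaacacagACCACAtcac
Ccr6 (chr17:8235793-8236042, plus strand): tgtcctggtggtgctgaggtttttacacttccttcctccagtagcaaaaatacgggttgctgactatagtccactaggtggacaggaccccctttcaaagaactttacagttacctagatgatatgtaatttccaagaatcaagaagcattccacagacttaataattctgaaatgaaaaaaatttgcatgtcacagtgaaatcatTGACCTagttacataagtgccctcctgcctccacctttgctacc

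The Cxcr3 window held 1 T-box match, between 234 and 229 bases before the start, and 1 RUNX match, the latter read as ACCACA on the strand shown. The Cxcr6 window held 1 RUNX match, between 10 and 5 bases before the start, and no match to the other motifs. The Ccr6 window held 1 ROR half-site, read as TGACCT on the strand shown, between 44 and 39 bases before the start. The other Ccr6 window and those of Ccr2, Ccr4, Ccr8 and Cxcr4 held none of the 3 motifs. Such short motifs are common: of 32851 windows of the same length, 12.3% held TCACAC, 14.0% AGGTCA and 14.0% TGTGGT. A match is a run of letters, and binding was not measured.

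Of the lymphoid receptors, Ccr7 was slightly lower in the USP7-titled arrays. It read 11.93, 11.94 and 12.10 in control arrays and 11.89, 11.75 and 11.62 in USP7-titled arrays. All 3 USP7-titled values were below the lowest control, the nearest by less than the spread within either group. The mean went from 11.99 ± 0.10 to 11.75 ± 0.14 (SD, n = 3 each). On the log2 scale the change was -0.24 (SE 0.07, 95% interval -0.40 to -0.08, limma adjusted p = 0.0264). This left 84.8% of the control level. The call is not stable. It was lost without control replicate 3 (-0.18, limma adjusted p = 0.0877). It was also lost without USP7-titled replicate 2 (-0.24, limma adjusted p = 0.0623) or replicate 3 (-0.17, limma adjusted p = 0.0940). Scaling the arrays to hybridization spikes lost it too (-0.08, limma adjusted p = 0.558).

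Cxcr5, which marks follicular T cells and B cells, was lower on average by more than Ccr7 but far less evenly. Controls read 9.10, 8.90 and 8.84, and USP7-titled arrays 8.15, 8.39 and 8.90. The first and second of the USP7-titled arrays were below every control, and the third lay inside the control range. The change was -0.47 (SE 0.17, 95% interval -0.85 to -0.08) and did not pass (limma adjusted p = 0.0611, exact permutation p = 0.2, two-sided). Without USP7-titled replicate 3 the change was -0.68 (limma adjusted p = 0.00412). Leaving out USP7-titled replicate 1 gave -0.30 (limma adjusted p = 0.185), which did not pass. With quantile normalization it passed (-0.49, limma adjusted p = 0.0432), and with spike scaling it was -0.31 (limma adjusted p = 0.224).

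Markers of the follicle were read beside Cxcr5. Bcl6, the regulator that directs the follicular T cell programme, fell by 0.73 on the log2 scale (SE 0.15, limma adjusted p = 0.00386); it read 9.88, 9.91 and 9.76 in control arrays and 9.16, 9.44 and 8.74 in USP7-titled arrays, and its other probe set fell by 0.82. The array with the lowest Bcl6 was the one with the highest Cxcr5 of its group. Of the 8 follicular T cell markers, Cxcr5 among them, 4 rose and 1 fell: the co-stimulator Icos rose by 0.37, the adaptor Sh2d1a by 0.30, Cd200 by 0.34 and the CD30 ligand gene Tnfsf8 by 0.52. B cells also carry Cxcr5. Of 11 measured B cell markers 3 rose (Ms4a1 by 0.998, H2-Eb1 by 0.91 and Cd74 by 0.28), 1 fell (Cr2, by 0.59) and 7 did not pass, and the summed linear level of the list was 7496 to 7961 in control arrays and 7791 to 8713 in USP7-titled arrays. The dimmer probe set of Ms4a1 was at 0.34 and did not pass. Ighm, the IgM heavy chain gene, did not pass by its brightest probe set (-0.04), whereas of its dimmer probe sets 6 rose, by 0.53 to 2.85, and 2 fell, by 0.25 and 0.75. Their part in the Cxcr5 value was not tested. In sorted bulk RNA, fewer cells of a type and less RNA per cell cannot be told apart, here or for any receptor below.

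Among the tissue receptors the CXC members rose. Cxcr6, the receptor for the membrane-bound chemokine Cxcl16 and a mark of resident cells in liver and other tissues, moved the furthest upward. Its brighter probe set gave 7.28, 7.54 and 7.32 in control arrays and 8.999, 8.92 and 9.04 in USP7-titled arrays. The gap between the groups was many times the spread inside them. The mean went from 7.38 ± 0.14 to 8.99 ± 0.06 (SD, n = 3 each). On the log2 scale the change was 1.61 (SE 0.12, 95% interval 1.35 to 1.87, limma adjusted p = 3.36e-06). The dimmer probe set of Cxcr6 reported the same direction, with 5.90, 5.86 and 6.09 in control arrays and 7.66, 8.02 and 7.73 in USP7-titled arrays. Its change was 1.86 (SE 0.14, limma adjusted p = 4.37e-06), and the 95% intervals of the 2 probe sets overlap.

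Cxcr3, the receptor for the interferon-induced chemokines Cxcl9, Cxcl10 and Cxcl11 and a mark of type 1 immune responses, rose with little scatter. Controls read 10.38, 10.57 and 10.39, and USP7-titled arrays 11.72, 11.67 and 11.78. Every USP7-titled array was more than 1 log2 unit above every control. The change was 1.27 (SE 0.07, 95% interval 1.12 to 1.43), the smallest adjusted p of the 12 probe sets (limma adjusted p = 3.70e-07). Cxcr3 is the only X-linked member, and the groups differ in sex. Tbx21, the type 1 regulator T-bet, read 8.82, 8.45 and 8.75 in control arrays and 10.03, 10.07 and 10.11 in the USP7-titled ones. That is a rise of 1.40 (SE 0.11, limma adjusted p = 6.39e-06). Cxcr3 is a well-known T-bet target in Treg, but a part of T-bet in the Cxcr3 rise was not tested here. Runx3, named after its values were seen, rose by 0.68 (SE 0.12, limma adjusted p = 0.00143).

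Cytotoxic cells also carry Cxcr3 and Cxcr6, so their markers were read beside these receptors. Of 11 measured CD8 T and NK cell markers 4 rose, 1 fell and 6 did not pass. The granzyme genes Gzmb and Gzma rose by 3.29 and 3.21, Nkg7 by 2.76 and Tyrobp by 1.85. The marker that fell was the perforin gene Prf1, by 0.45 (SE 0.09, limma adjusted p = 0.00255), and Eomes was at -0.52 (limma adjusted p = 0.0992); Prf1 and Eomes were named after their values were seen. The summed linear level of the list went from 3969 to 4036 in control arrays to 13984 to 14762 in USP7-titled arrays. Gzmb (mean 9.35 in control and 12.64 in USP7-titled arrays) and Nkg7 (9.47 and 12.24) had the highest means of the list. They therefore weigh most in this sum. The lineage genes Cd8a and Cd8b1 did not pass: Cd8a read 8.64, 8.77 and 8.52 in control arrays and 8.72, 8.93 and 8.34 in USP7-titled arrays, and Cd8b1 was at -0.23 (SE 0.12, limma adjusted p = 0.184). The NK receptor gene Ncr1 did not pass either, at -0.15 (SE 0.13, limma adjusted p = 0.413). Nor did Klrd1 (0.19, limma adjusted p = 0.701) or Klrk1 (-0.26, limma adjusted p = 0.523). An array signal has no true zero, so none of these can be called absent.

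Cxcr4, the receptor for Cxcl12 that holds cells in bone marrow and in lymphoid and inflamed tissue, rose by a small and even amount. It read 11.60, 11.72 and 11.59 in control arrays and 12.09, 12.03 and 12.10 in USP7-titled arrays. The groups did not overlap, and the change of 0.43 (SE 0.05, 95% interval 0.32 to 0.54, limma adjusted p = 7.61e-05) corresponds to a 1.35-fold rise.

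Ccr6 went the other way. It is the receptor for Ccl20, known for guiding Treg and Th17 cells to gut and other barrier tissue, and it is also found on B cells. Controls read 9.77, 9.58 and 9.60, and USP7-titled arrays 7.88, 7.54 and 8.27. The groups were far apart, but the USP7-titled arrays were the more scattered. The mean went from 9.65 ± 0.10 to 7.90 ± 0.36 (SD, n = 3 each). On the log2 scale the change was -1.75 (SE 0.17, 95% interval -2.12 to -1.39, limma adjusted p = 2.07e-05). This left 29.7% of the control level. Its ligand Ccl20 was lower in the same arrays, by 0.97 (SE 0.15, limma adjusted p = 0.000655). Rora, a nuclear receptor gene linked to Ccr6 in Th17 cells and named after its values were seen, rose by 0.48 (SE 0.10, limma adjusted p = 0.00375).

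The remaining tissue receptors changed little. Ccr4, the receptor for Ccl17 and Ccl22 used by skin-homing and effector Treg, read 10.88, 10.85 and 10.66 in control arrays and 10.95, 10.97 and 11.09 in USP7-titled arrays. The groups did not overlap, yet the change of 0.21 (SE 0.08, 95% interval 0.04 to 0.37) narrowly missed the threshold (limma adjusted p = 0.0574). It passed with median centring (0.22, limma adjusted p = 0.0439) and spike scaling (0.37, limma adjusted p = 0.00660). With quantile normalization it did not pass (0.14, limma adjusted p = 0.184). Nor did it pass with any single array left out (0.14 to 0.25, limma adjusted p up to 0.183). Ccr8, a mark of Treg in skin and tumours, read 8.73, 8.68 and 8.57 in control arrays and 8.92, 8.94 and 8.73 in USP7-titled arrays. The lowest USP7-titled value was just below the highest control. Its change was 0.20 (SE 0.11, 95% interval -0.04 to 0.45, limma adjusted p = 0.191), and with spike scaling it passed (0.36, limma adjusted p = 0.0310).

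Ccr2, the receptor for Ccl2 and related chemokines, is best known on monocytes and also on activated T cells. Its brightest probe set read 9.16, 9.10 and 9.0 in control arrays and 9.40, 8.94 and 9.02 in USP7-titled arrays, with the groups intermixed (0.03, SE 0.13, 95% interval -0.25 to 0.32, limma adjusted p = 0.870). The second probe set read 8.41, 8.23 and 8.52 in control arrays and 8.57, 8.72 and 8.67 in USP7-titled arrays. These groups were just apart, and the change of 0.26 (SE 0.12) did not pass (limma adjusted p = 0.109). The dimmest was at 0.03 (SE 0.12, limma adjusted p = 0.893). The 95% interval of the brightest allows a rise or a fall of about this size, so a modest difference in Ccr2 cannot be told from none.

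Myeloid markers were read beside Ccr2 because monocytes carry it. Of 16 measured markers of monocytes, macrophages or neutrophils 11 rose and 0 fell, with a median log2 change of 1.56. The complement genes C1qb and C1qc rose by 2.86 and 2.48, the lysozyme genes Lyz1 and Lyz2 by 2.48 and 1.65, and S100a8 by 2.07. The probe sets of Lyz1 disagree: another of similar control level (7.24) was at 0.0027 (limma adjusted p = 0.990). Their summed linear level was 1875 to 2484 in control arrays and 5356 to 6873 in USP7-titled arrays. Their part in the receptor values was not tested. Mature dendritic cells carry Ccr7. Of 9 markers of dendritic cells 4 rose (Tcf4 by 1.005, Clec10a by 0.98, Bst2 by 0.63 and Irf8 by 0.37). Zbtb46 fell by 0.96 and 4 did not pass. Other probe sets of Tcf4 ran from 0.05 to 1.01, and that of Irf8 (0.43) did not pass. The summed level of the list was 2149 to 2220 in control arrays and 2883 to 2998 in USP7-titled arrays. Bst2 had the highest mean of the list (10.01 in control and 10.65 in USP7-titled arrays) and so weighs most in this sum.

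**Figure D2:**
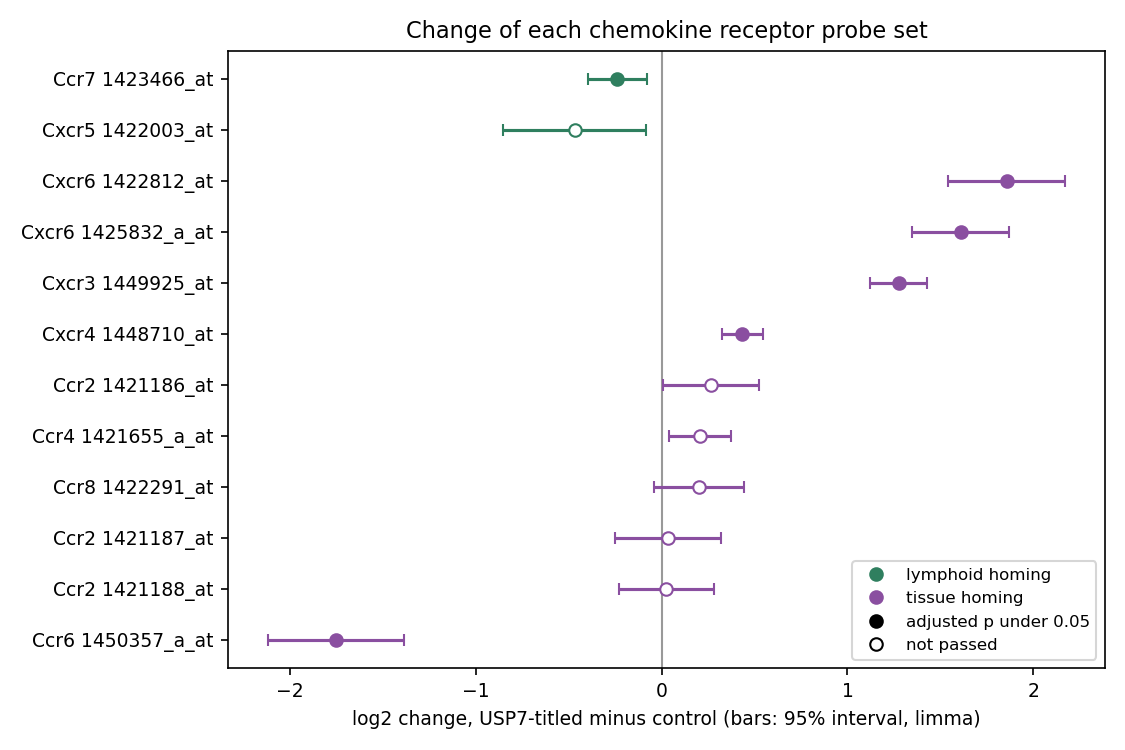
The log2 change (USP7-titled minus control) of each of the 12 receptor probe sets is drawn with its 95% interval from limma; green marks lymphoid and purple tissue homing receptors, and filled points have an adjusted p under 0.05. Both lymphoid receptors lie below 0, at -0.24 and -0.47, and the tissue receptors spread from -1.75 for Ccr6 to 1.86 for the dimmer Cxcr6 probe set.

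Set side by side, both lymphoid receptors were lower on average and 6 of the 7 tissue receptors higher, with Ccr6 the exception. Of these 6, Ccr2 has no settled sign: it kept 0.0059 or more under the 3 other scalings, and was at -0.11 without USP7-titled replicate 1. The median log2 change was -0.35 over Ccr7 and Cxcr5 and 0.21 over the tissue receptors, or 0.32 without Ccr6, against -0.05 over all genes. Of the tissue receptors 3 rose and 1 fell; of the lymphoid receptors 1 fell. As a description only, the medians differed in sign in each USP7-titled array. Measured from the control mean, the median deviation of the lymphoid receptors was -0.45, -0.40 and -0.21 in USP7-titled arrays 1 to 3. That of the tissue receptors was 0.31, 0.28 and 0.29. By receptor the division does not hold: Ccr6 was at -1.77, -2.11 and -1.38, and Ccr2 at 0.31, -0.15 and -0.07. The medians are the middle of 7 values and the mean of 2, and single receptors varied more. Between the 2 lymphoid receptors, Cxcr5 lay further below control in the first and second array (-0.80 and -0.56). In the third Ccr7 did (-0.37, against -0.05 for Cxcr5). No test was made of the difference between the 2 kinds, since the receptors were chosen with results known. Scaled to hybridization spikes, the medians were -0.19 and 0.37, against 0.11 for all genes. With quantile normalization they were -0.40 and 0.19, against -0.02.

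**Figure D3:**
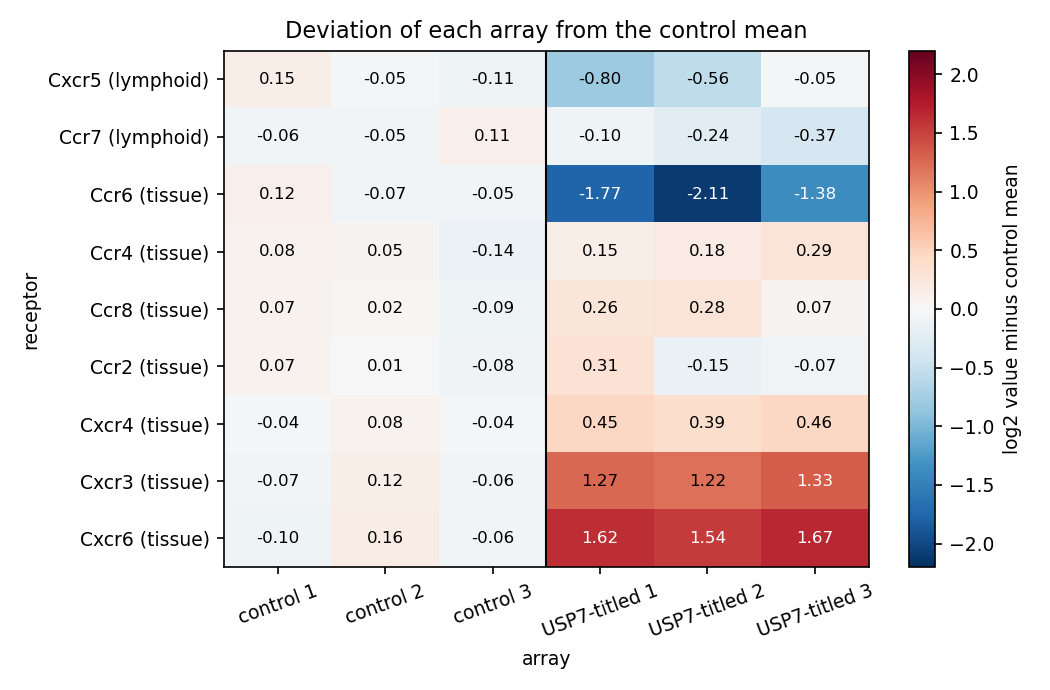
Each cell gives the log2 value of a receptor's brightest probe set on an array minus the control mean of that receptor, with lymphoid receptors in the upper rows and tissue receptors beneath; red is above and blue below the control mean. Cxcr6, Cxcr3 and Cxcr4 are red and Ccr6 is blue in all 3 USP7-titled arrays, whereas Cxcr5 runs from -0.80 to -0.05 across them.

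The other genes of the chemokine system moved in both directions. For the counts in this and the following lists, the shares over all genes were 16.9% higher and 15.6% lower. Of 12 other chemokine receptors measured, 1 rose and 1 fell. Ccr10, a skin and mucosal homing receptor, rose by 0.69 (SE 0.12, limma adjusted p = 0.00132). The scavenger receptor gene Ackr4 fell by 0.41 (limma adjusted p = 0.0415), and this call was lost under each of the 3 other scalings. The median of these 12 was -0.13. Among 14 measured ligands of the 9 receptors 3 rose, 2 fell and 9 did not pass. Ccl8, known as a ligand of Ccr8 in the mouse, rose from 4.62 ± 0.09 to 9.70 ± 0.11 (SD, n = 3 each), a change of 5.08 (SE 0.13). Ccl12, a ligand of Ccr2, rose by 1.42 (SE 0.17), and Cxcl9, a ligand of Cxcr3, by 1.24 (SE 0.26, limma adjusted p = 0.00384). Ccl1, a ligand of Ccr8 named after its values were seen, fell by 0.69 (SE 0.22, limma adjusted p = 0.0324), a call lost with quantile normalization (limma adjusted p = 0.0650) and spike scaling (limma adjusted p = 0.113). Cxcl16, the ligand of Cxcr6, was at -0.28 (SE 0.11, limma adjusted p = 0.0781).

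Genes that carry or damp the receptor signal were also divided, with 6 of 31 higher and 8 lower and a median of 0.01. The largest changes were those of Rgs2 (-1.68, SE 0.13), a regulator that shortens G protein signals, the arrestin Arrb1 (-1.24, SE 0.13), the G protein subunit Gng2 (1.07, SE 0.11; 0.24 and not passed by its dimmer probe set) and the phospholipase Plcb2 (-0.84, SE 0.10). Rgs1, Rgs10 and Rgs16, named after their values were seen, fell by 0.54, 0.50 and 0.76. The calls of this list turned with the scaling: with spike scaling 11 were higher and 6 lower.

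Other homing and retention receptors had 4 of 14 higher and 6 lower. The integrin Itgae (CD103), which holds cells in epithelium, fell by 0.83 (SE 0.11), and S1pr1, which leads cells out of lymph nodes, by 0.57 (SE 0.10). Fut7, which makes selectin ligands, rose by 0.82 (SE 0.12) and the integrin Itgb1 by 0.65 (SE 0.08), with 5 dimmer probe sets of Itgb1 at 0.18 to 0.78, of which 3 did not pass. With spike scaling 5 were higher and 2 lower. Of 27 regulators known to act on homing receptors 9 rose and 8 fell (12 and 5 with spike scaling). Besides Tbx21, Zeb2 rose by 1.35 (SE 0.18) and Id2 by 1.24 (SE 0.16; -0.10 and not passed by its dimmest probe set), whereas Bach2, a repressor of the effector state, fell by 1.07 (SE 0.13). Foxo1, which is known to sustain Klf2 and Ccr7 and was named after its values were seen, fell by 0.56 (SE 0.04); Klf2 itself was at 0.15 (SE 0.06, limma adjusted p = 0.103).

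**Figure D4:**
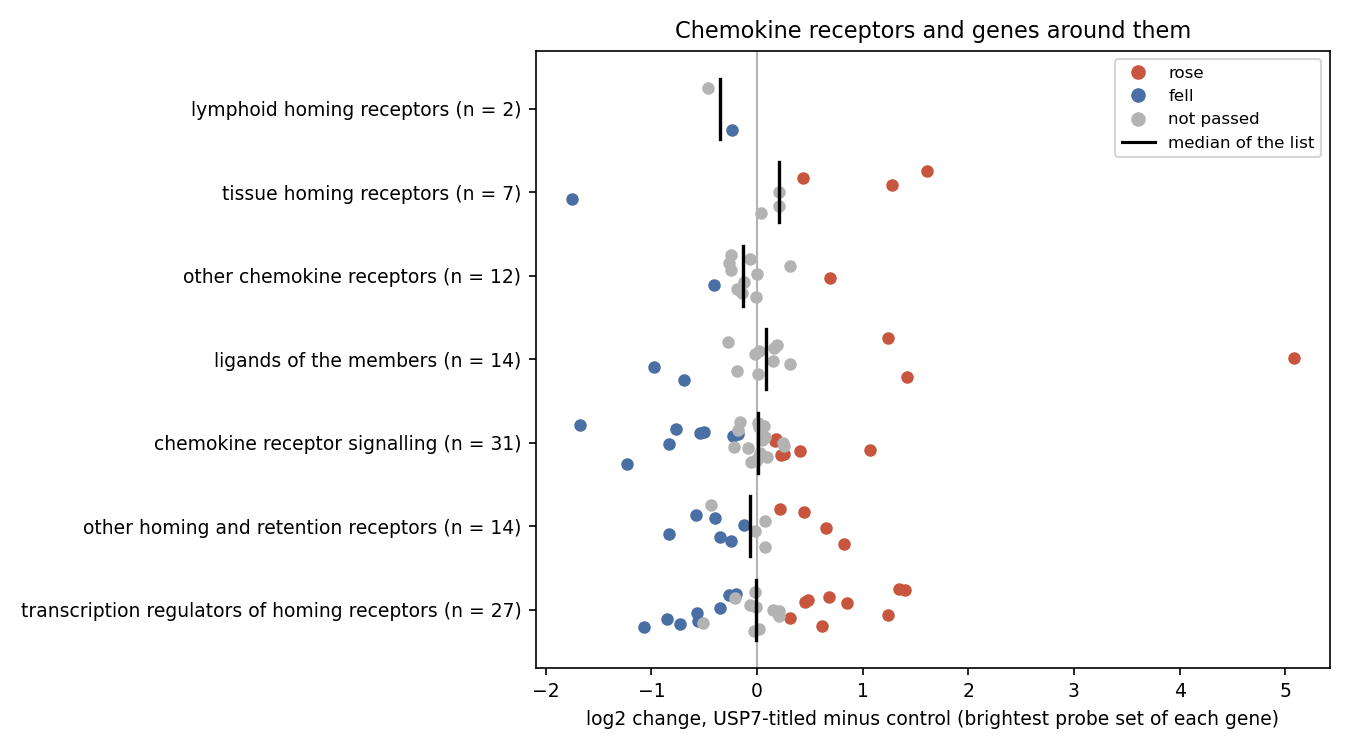
Each point is the log2 change (USP7-titled minus control) of a gene by its brightest probe set, red where it rose, blue where it fell and grey where it did not pass, with the median of each list as a black bar. The tissue receptors have 3 red and 1 blue point of 7, and the ligand list holds the far outlying point of Ccl8 at 5.08.

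Position in the genome was read as well. The 2 nearest measured protein-coding genes, 1 on each side of each member in the reference order, gave 18 neighbours. Of these 3 rose, 5 fell and 10 did not pass, whereas 16.9% of all genes rose and 15.6% fell. The neighbours were chosen after the receptor values were seen. Cxcr6 lies between Fyco1 and the chemokine receptor gene Xcr1. Fyco1 fell by 1.08 (SE 0.17, limma adjusted p = 0.000576) while Cxcr6 rose, and Xcr1 was at -0.25 (limma adjusted p = 0.223). Beside Ccr6, Mpc1, a subunit of the mitochondrial pyruvate carrier, rose by 0.47 (SE 0.09, limma adjusted p = 0.00230) while Ccr6 fell. Next to Cxcr3, Ogt fell by 0.87 and Nhsl2 rose by 0.59. Beside Cxcr4 the replication gene Mcm6 rose by 0.39 and Cd55b fell by 0.37. The Cd55b probe set was dim, at 3.50 in control and 3.12 in USP7-titled arrays. Both neighbours of Cxcr5, Bcl9l and Ddx6, fell, by 0.73 and 0.39, whereas those of Ccr2, Ccr4, Ccr7 and Ccr8 did not pass.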

How the data were processed

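The deposited table holds log2 expression values per probe set, 1 column per array (base taken from their range, 2.21 to 14.47). How the authors summarised and normalized them was not found in the labels. Per the labels' protocols, total RNA was amplified and labelled with biotin. Array medians ran from 7.91 to 7.96, and the values were used as deposited. Arrays made alike in this way cannot show a shift in total RNA, and dim probe sets understate changes.

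The table lists 22690 probe sets, 64 of them array controls that were left out. The platform annotation gave 20380 a single gene symbol, 691 several and 1555 none; 20351 matched the reference table (GRCm38.p6) by gene identifier. Groups were compared over the 22626 remaining probe sets with limma 3.58.1 in R 4.3.3 (lmFit, eBayes with trend), as a two-sided test with p-values adjusted by Benjamini-Hochberg across the whole set. A gene's count uses its brightest probe set over all 6 arrays. With 3 against 3 arrays an exact permutation test cannot go below 0.1. The number of arrays limits the precision; the median residual SD was 0.141. Levels of different probe sets were not set against each other; a list's summed linear level (2 to the power of each log2 value, added over its measured genes) is compared only between arrays.

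Members and gene lists were chosen with earlier results of these data known. The rule for naming took from each list the 4 genes that passed and changed most (if none passed, the 2 of lowest p). From each marker list it also took the 2 with the highest mean. Not every gene taken by this rule is named in the text, and some genes are named outside it. The fit was also run on simulated data with known changes, whose noise levels were shuffled over probe sets. That run therefore lacked the link between level and spread, and the large share of changed probe sets, of the real data. Alternatives were other scalings, filters, probe set rules, variance models, thresholds, array weights, a replicate block, leaving out each array and leaving out X and Y genes. Spike scaling used 18 hybridization spike probe sets and was applied to the deposited values.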

Additional observations from a re-analysis of the deposited data

How the results depend on the processing

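Cxcr6, Cxcr4 and Ccr6 kept their direction and their call in all 19 alternatives, and Cxcr3 in the 18 that kept X-linked genes. Changes ran from 1.56 to 1.77 for Cxcr6, 1.21 to 1.43 for Cxcr3, 0.37 to 0.59 for Cxcr4 and -1.94 to -1.57 for Ccr6. Ccr7 lost its call in 6 alternatives: besides those given with its values, eBayes without trend (limma adjusted p = 0.122) and the 0.01 threshold. Ccr4 and Cxcr5 gained one in 5 each and Ccr8 in 1. The count of receptors lower was therefore 1 with spike scaling, without trend and at the 0.01 threshold. It was 1 to 2 when single arrays were left out. It was 3 with quantile normalization, array weights, the lowest 40% of probe sets removed, and the 0.10 threshold. The count higher was 5 with spike scaling. It was 4 with median centring, the mean of probe sets, the lowest 40% removed, and the 0.10 threshold. Without X and Y genes, which leaves out Cxcr3, it was 2. Spike scaling moved the lymphoid median to -0.19 and the tissue median to 0.37, and quantile normalization the latter to 0.19; leaving out single arrays gave 0.16 to 0.27. Spike scaling raised the median of all genes from -0.05 to 0.11 and the share of higher calls from 48.7% to 72.7%; its lower probe sets numbered 1938, against 3865 as deposited. With fewer features tested, 2102 genes were higher and 1976 lower by 1 probe set per gene, and 2076 and 2202 by their mean; at the 0.01 threshold 2350 probe sets were lower. Spike scaling and median centring subtract 1 value per array, so each moves the change of every probe set by the same amount. They leave the distance between a receptor's change and the median of all genes as it was. The cause of the remaining shifts was not tested.

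The titles give both groups the replicate numbers 1 to 3. Deviations of same-numbered arrays from their group means had r = 0.07, -0.05 and 0.09 over probe sets. Pairs with different numbers ran from -0.14 to 0.09. With means of only 3 arrays, these values cannot show whether same-numbered arrays share more than a number. A fit with the replicate number as a block called 3637 probe sets higher and 3858 lower, with the same counts of receptors, 3 higher and 2 lower. It changed no receptor's call. Signal over background, which limits the dim probe sets, was not analysed here.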
